A study of Crocodylus porosus with 60 samples.

Results

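Brain miRNA levels were compared between 1 library headed as a runt and 1 library headed as a normal hatchling of the saltwater crocodile, Crocodylus porosus. The rows compared were those with at least 100 RPM (reads per 1000000 reads) in either brain library, which were 108 of the 654 rows of the deposited table. Where several rows shared a mature name, the one with the highest value was kept, which left 103 of 647 names, called members here. Of these, 79 are named after a known miRNA family. The other 24 are numbered with an N, such as miR-N444, and are given no family in the table; whether they are true miRNAs was not checked.

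The study sequenced small RNA from 10 tissues of farmed hatchlings, deposited as 60 samples and 15 value columns used here. Runts measured 386.2 ± 23.6 mm (SD) at 359 days and normal hatchlings 740.2 ± 73.5 mm at 373 days, per the labels, so age differs along with size. Runts grew under the same conditions as normal hatchlings and no treatment was given; the labels name the purpose as a search for transcriptional reasons behind the difference in growth. Size class of a library is known only from the column headers. Each brain column stands for 4 samples of 1 library name whose values are not given one by one, and which of the names M2 and Q3 is the runt is not stated. With 1 library a side there is no replicate, no SD and no test, and animal, age, brain region sampled and library preparation cannot be told apart from size class.

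A miRNA is a short RNA that guides Argonaute proteins to messenger RNAs with a matching seed, which lowers their translation and stability. In vertebrate brain, miR-9, miR-124, miR-128, miR-129, miR-132 and miR-138 are known as neural miRNAs, while let-7 miRNAs accumulate as cells differentiate. A brain sample also holds blood vessels, blood cells, choroid plexus and glia, each with miRNAs of its own. Arm names such as 5p are used as the table gives them, and the sequences behind the names were not analysed here.

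Both libraries held neural miRNAs at levels above the other tissues. The 13 matched rows of the brain and neuron list summed to 61390 RPM in the normal and 72990 RPM in the runt brain, against 630.6 to 9079 RPM in the 13 libraries of other tissues. The liver row miR-122-5p had 2.31 and 1.90 RPM, and the gonad row miR-202-5p 0.21 RPM in the normal brain and was listed at 0 in the runt brain. Gut epithelium rows summed to 13.9 and 4.27 RPM, striated muscle rows to 181 and 173 RPM, and epithelium and skin rows to 284 and 354 RPM. Of the oligodendrocyte rows, miR-338-3p had 344 and 620 RPM and miR-219a 7.78 and 5.22 RPM.

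The 2 libraries differed in how their reads were spread, and this sets how any single fold reads. One row, miR-N444, took 37.3% of the summed RPM of all 654 rows in the normal brain (exact binomial 95% interval 37.2 to 37.4%) and 8.19% in the runt brain (8.14 to 8.23%). Without it, the listed rows summed to 386700 RPM in the normal and 599900 RPM in the runt brain. Folds are therefore given in both forms. The deposited fold is the ratio of the deposited RPM. The scaled fold first divides the runt's values by 2.13 (1.09 on the log2 scale), the trimmed mean of log ratios over 509 names above 0 in both libraries. Only 248 names reached 10 RPM in either brain library, so many of the 509 were at low levels. There, 1 read was worth about 0.474 RPM in the runt and 0.210 RPM in the normal library. How far low counts set the factor was not tested. Over family-named rows alone the same trimmed mean gave 1.01 (0.02 on the log2 scale), close to the deposited scale. The factor of 2.13 thus rests on the N-numbered rows being included. Every scaled log2 fold is thus lower than the deposited one by about this amount, and 30 of the 103 members lie on opposite sides of equality on the 2 scales. Values are log2(RPM + 1), and brackets after a log2 fold give an exact 95% interval for counting error only. Levels set beside other tissues are deposited RPM.

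After scaling, 23 of 103 members were at least 2-fold higher in the runt brain, which is 22.3% against a background of 23.8% of the 248 names with at least 10 RPM in either brain library. At least 2-fold lower were 40 members, which is 38.8% against a background of 25.8%. This gap goes with the kind of name. Of the family-named rows, 38 of 79 members were lower against 56 of 111 background names, and of the N-numbered rows 2 of 24 against 8 of 137. With deposited RPM the split turned, with 38 members higher (background 48.0%) and 15 lower (background 11.3%). Over both kinds of name together, the members' share of higher rows was thus near the background on the scaled values and below it on the deposited values. The mix of kinds differs, as 24 of the 103 members but 137 of the 248 background names are N-numbered. As deposited, 20 of 79 family-named members were higher against 23 of 111 background names, and 18 of 24 N-numbered members against 96 of 137. After scaling the counts were 12 against 13 and 11 against 46, so the shortfall was not seen within a kind. Lower as deposited were 14 of 79 family-named members against 24 of 111, and 1 of 24 N-numbered members against 4 of 137. Past 4-fold, 7 were higher (background 6.05%) and 15 lower (background 11.3%) after scaling, and 23 were higher (background 23.8%) and 5 lower (background 3.63%) with deposited RPM.

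The members that passed 2-fold in the same direction on both scales were 23 higher (background 23.8%) and 15 lower (background 11.3%) in the runt brain. As the scaled fold is the lower one, these are all 23 that passed after scaling and all 15 that passed as deposited. The 23 higher are 12 with a family name and 11 N-numbered, and the 15 lower are 14 with a family name and miR-N444. Among background names, 24 of 111 family-named and 4 of 137 N-numbered were past 2-fold lower as deposited. Against 14 of 79 family-named members, the excess over 11.3% was thus not seen among family-named rows. Of the 23 higher, 11 had under 100 RPM in the normal brain and became members through the runt alone, so those had to be higher on the deposited scale. Among the 75 members with at least 100 RPM in both libraries, 12 were higher and 11 lower on both scales.

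**Figure D1:**
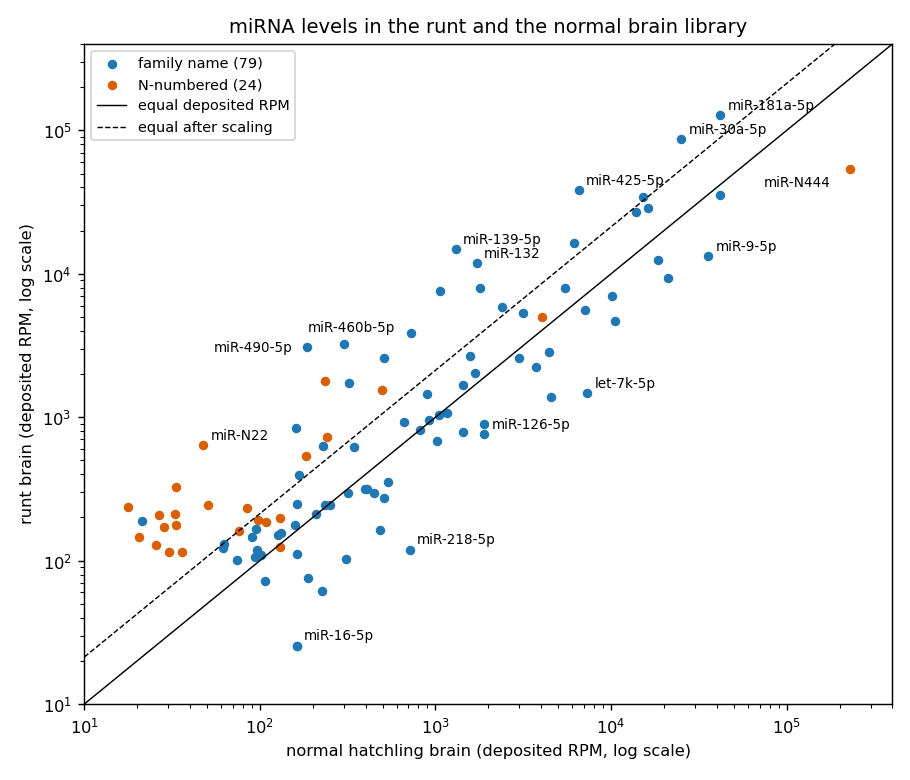
Each point is 1 of the 103 members, with its deposited RPM in the normal brain library on the horizontal and in the runt brain library on the vertical axis, both logarithmic. The solid line marks equal deposited RPM and the dashed line equal levels after division by 2.13. miR-N444 lies far below both lines, at 230138 and 53488 RPM, and most N-numbered members with under 100 RPM in the normal brain lie above both.

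The largest fold upward was that of miR-490-5p, a miRNA whose gene lies within the muscarinic receptor gene CHRM2 in mammals. It had 187 RPM in the normal brain and 3091 RPM in the runt brain, a scaled log2 fold of 2.95 [2.86, 3.06] and 16.5-fold with deposited RPM. Heart was the other tissue with high levels, and there the order was the reverse, with 3192 RPM in the normal and 991 RPM in the runt library. The runt brain thus lay close to the normal heart as deposited, and the normal brain below both hearts. The other 11 libraries had 1.49 to 78.3 RPM.

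miR-139-5p, hosted by the phosphodiesterase gene PDE2A in mammals, had 1305 RPM in the normal and 14825 RPM in the runt brain. Its scaled log2 fold was 2.42 [2.38, 2.46] and its deposited fold 11.3. The runt brain was also above each of the other 13 libraries for this row, the highest of which was a runt testis with 2080 RPM. miR-460b-5p, of a family known from vertebrates other than mammals, had 300.4 and 3226 RPM (scaled log2 fold 2.33 [2.25, 2.42]). Its level in both brains was above that in each of the other 13 libraries, of which a runt testis with 91.8 RPM was the highest.

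Among neural miRNAs the members went different ways. miR-132, which CREB signalling induces in active neurons, had 1713 RPM in the normal and 11803 RPM in the runt brain, a scaled log2 fold of 1.70 [1.66, 1.73] and a deposited fold of 6.89. miR-138-5p, a miRNA of dendritic spines, had 509 and 2567 RPM, 2.37-fold higher after scaling. These 2 were the members of the brain and neuron list past 2-fold higher in the runt on both scales.

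On the opposite side stood miR-9-5p and miR-218-5p. miR-9-5p, which acts in neural progenitors and stays on in neurons, had 35790 RPM in the normal and 13244 RPM in the runt brain, 5.75-fold lower after scaling and 2.70-fold lower with deposited RPM. miR-218-5p, whose genes lie within SLIT2 and SLIT3 and which is prominent in motor neurons, had 715 and 119 RPM, the largest fold downward of all members at -3.65 [-3.87, -3.49] after scaling. The runt's value lies below the 216 RPM of the runt heart and the 218 and 301 RPM of the runt testes, and the normal brain's value above all of these.

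Of the other 4 members of the list, miR-128-1-5p and miR-383-5p changed direction with the scale. miR-128-1-5p had 16195 and 28582 RPM, which is 1.77-fold higher in the runt as deposited and 1.2-fold lower after scaling. The miR-128 family is a brake on neuronal excitability in mouse, and whether this row holds the arm that acts so was not checked. miR-129-5p had 6182 and 16348 RPM and was higher in the runt on both scales, by 2.64-fold as deposited and 1.24-fold after scaling. miR-124-5p, the 5p arm of a miRNA of neurons, had 107 and 71.6 RPM, and was lower on both scales. miR-383-5p had 160 and 176 RPM, 1.10-fold higher as deposited and 1.92-fold lower after scaling. Over the 8 members of the brain and neuron list, 2 were past 2-fold higher, 3 past 2-fold lower and 3 in between after scaling. Their median log2 fold was -0.60, against -0.54 for all members and -0.94 for the 79 with a family name. miR-137-5p, also of this list, stayed under the limit of 100 RPM with 7.36 and 46.0 RPM.

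Without miR-9-5p, the other 12 rows of the brain and neuron list summed to 25600 RPM in the normal and 59740 RPM in the runt brain. With it the sums were 61390 and 72990 RPM, so the ratio of the list moved with 1 row. After scaling, the runt's sums were 28100 RPM without and 34330 RPM with miR-9-5p, which turns the direction of the second against the normal brain. The ratio of miR-132 to miR-9-5p within a library, in which no scaling enters, was 0.0479 (95% interval 0.0468 to 0.0489) in the normal and 0.891 (0.876 to 0.906) in the runt brain, an 18.6-fold difference. As miR-132 is among the 15 largest positive and miR-9-5p among the 15 largest negative folds, a large difference followed from the choice of pair. The other 13 libraries ranged from 0.259 to 5.70, so the runt brain's ratio lay within them and the normal brain's below all of them. In those libraries the levels were far lower, at most 664 RPM for miR-132 and 307 RPM for miR-9-5p.

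Most rows for miRNAs of vessels, blood and mesenchyme were lower in the runt brain. The 4 lists for red blood cell, white blood cell, endothelium, and smooth muscle and mesenchyme held 10 rows, of which 9 were lower in the runt as deposited and 10 after scaling. Of the 248 names with at least 10 RPM, 25.0% were lower by any amount as deposited and 52.0% after scaling. However, 137 of the 248 are N-numbered, while all 10 list rows carry a family name. The 111 family-named names had a median log2 fold of 0.07 as deposited and -1.02 after scaling, so a fall after scaling was common among them. Past 2-fold lower were 24 of these 111 as deposited and 56 after scaling. Their share lower by any amount was not computed, so no excess of the 10 list rows over family-named names is claimed. The 10 list rows summed to 8339 RPM in the normal and 5363 RPM in the runt brain, 1.56-fold lower with deposited RPM. miR-126-5p, the endothelial miRNA hosted by EGFL7, had 1892 and 759 RPM, a scaled log2 fold of -2.40 [-2.48, -2.33] and 2.49-fold lower as deposited. miR-199-5p, a miRNA of mesenchymal cells, had 483 and 163 RPM, and miR-21-5p, found in many cell types including immune cells, 1894 and 896 RPM. Both were past 2-fold lower on both scales.

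Other rows of these lists were lower by less or were at low levels. miR-145 of smooth muscle had 2980 and 2580 RPM, and miR-150 of lymphocytes was level as deposited, at 819 and 815 RPM. Under the 100 RPM limit, the red blood cell row miR-144-5p had 21.9 and 9.96 RPM, miR-223 of myeloid cells 31.5 and 9.01 RPM, and miR-155-5p 50.9 and 12.8 RPM. miR-146a-5p was the 1 row higher as deposited, at 3.36 and 6.64 RPM. In bulk tissue, fewer cells of a type and less RNA per cell cannot be told apart, and the part that vessel and blood content plays in the other folds was not tested.

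miRNAs of choroid plexus and ciliated cells lay close to equality after scaling. miR-204, abundant in choroid plexus and retinal pigment epithelium, had 3163 and 5324 RPM, 1.26-fold lower after scaling and 1.68-fold higher as deposited. Its partner miR-211 had 0.5 times the value of miR-204 in all 15 libraries, to within 0.0296%, as rows that share reads would. miR-34b-5p, of multiciliated cells, had 229 and 627 RPM (scaled log2 fold 0.37 [0.25, 0.48]), miR-449a-5p 168 and 393 RPM, and miR-449b-5p 61.8 and 122 RPM. All 5 members of this list were within 2-fold after scaling, with a median of -0.10. As deposited, 2 of the 5 were past 2-fold higher in the runt, with a median of 0.97, so the closeness depends on the scale.

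miR-7, a neuroendocrine miRNA of hypothalamus and pituitary, was also close to equality after scaling, at 2378 and 5822 RPM and 1.15-fold higher in the runt. As deposited it was 2.45-fold higher. miR-375, of pituitary and other endocrine cells, had 61.4 and 37.0 RPM and stayed under the limit. The HOX cluster rows, which mark hindbrain and spinal cord within the nervous system, were low in both, with miR-10c-5p at 13.0 and 0.95 RPM and miR-10a-5p at 3.99 and 1.42 RPM. miR-183, known from sensory cells and pineal, was the member closest to the limit, at 73.8 and 101 RPM. Just above it were miR-133-5p (94.2 and 106 RPM) and miR-124-5p, and just below it miR-N523 (27.1 and 97.7 RPM), miR-N434 (28.1 and 95.1 RPM) and miR-N41 (61.6 and 94.8 RPM).

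The let-7 family was lower in the runt brain in all of its rows. It has 9 members, which are 8 let-7 rows and the related miR-98-5p. After scaling, 9 of 9 were past 2-fold lower, against 38 of the 79 family-named members. The background was 56 of 111 family-named names, and 25.8% over both kinds of name. As deposited, 9 were lower in the runt, 5 of them past 2-fold, against 14 of the 79 family-named members. The background was then 24 of 111 family-named names, and 11.3% over both kinds. The median scaled log2 fold was -2.26, against -0.54 for all members and -0.94 for the family-named ones. let-7k-5p had 7303 RPM in the normal and 1466 RPM in the runt brain (-3.40 [-3.46, -3.35]), let-7f-5p 4526 and 1391 RPM, let-7a-5p 10511 and 4652 RPM, and miR-98-5p 189 and 76.3 RPM. The smallest difference was that of let-7g-5p, at 7116 and 5623 RPM, 1.27-fold lower as deposited.

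The rows of the let-7 family are not independent. let-7a-5p had 0.5 times the value of let-7j-5p in all 15 libraries, to within 0.0144%, as rows that share reads would, and let-7j-5p had 21022 and 9304 RPM in brain. The summed level of the family was 80730 RPM in the normal and 42890 RPM in the runt brain, and 26180 to 75900 RPM in the other 13 libraries. As deposited, the normal brain lay above all other libraries and the runt brain within their range. After scaling to the normal brain the runt's sum was 20170 RPM. It was not set beside the other 13 libraries, which were left as deposited.

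The miR-15/16 family, known for its targets among cell cycle genes, was also low in the runt brain. miR-16-5p had 162 RPM in the normal and 25.5 RPM in the runt brain, a scaled log2 fold of -3.64 [-4.17, -3.35], and the row miR-16a-5p carries the same values in every library. The runt brain's value rests on 54 reads, the fewest of any member. miR-16c had 534 and 353 RPM, while miR-15c, at 133 and 155 RPM, was higher in the runt as deposited and lower after scaling.

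miR-135a/b-5p had 227 and 61.8 RPM and miR-455-5p, which lies in the collagen gene COL27A1 in mammals, 311 and 103 RPM. Both were past 2-fold lower in the runt on both scales. miR-N444 itself was 9.15-fold lower after scaling and 4.30-fold lower as deposited. It was the most abundant row of the normal brain, and miR-181a-5p, a broadly expressed miRNA, that of the runt brain.

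**Figure D2:**
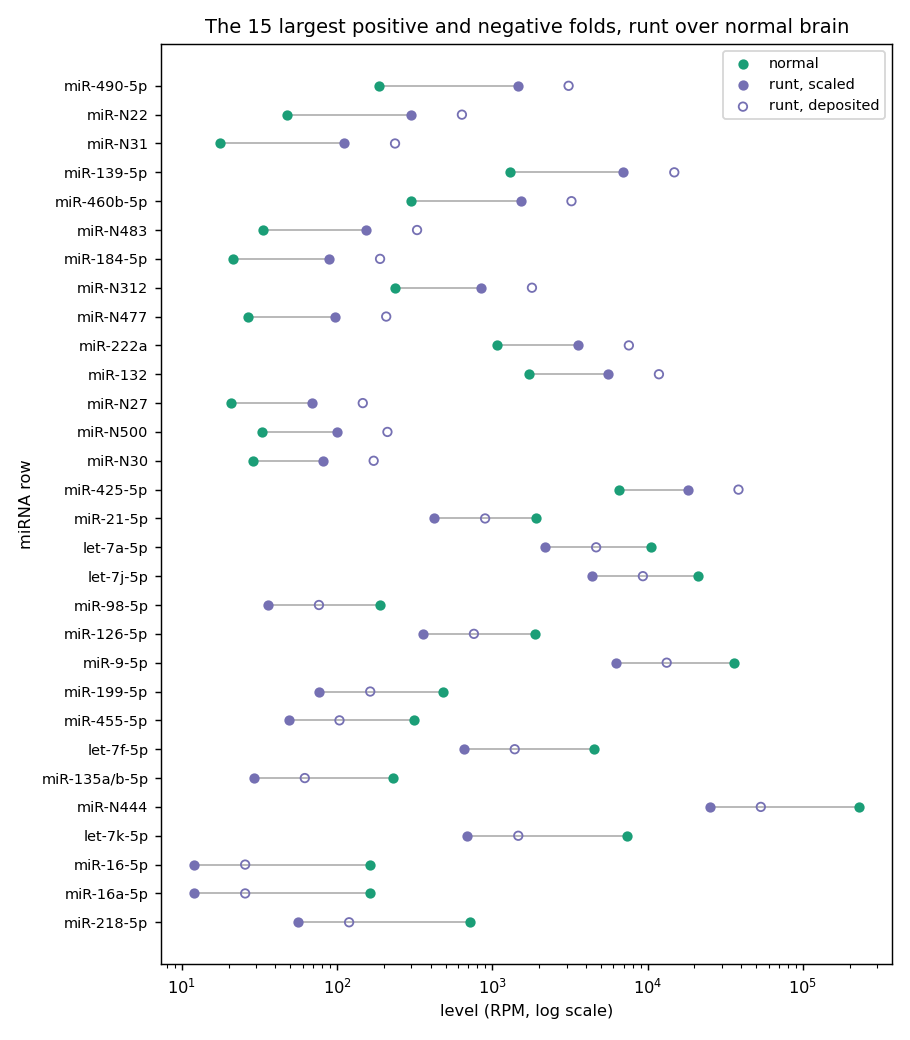
Levels of the 15 members with the largest positive and the 15 with the largest negative scaled log2 fold, on a logarithmic RPM axis. Green points are the normal brain, filled purple points the runt brain after division by 2.13, and open purple points the runt brain as deposited. On both scales the upper 15 rows are past 2-fold higher and the lower 15 past 2-fold lower in the runt.

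miR-221-5p and miR-222a, of a cluster that targets the cell cycle inhibitor CDKN1B in mammals, were both higher in the runt brain. Whether these rows hold the arms that do so was not checked. miR-222a had 1063 and 7557 RPM (1.74 [1.70, 1.79] after scaling) and miR-221-5p 1795 and 7953 RPM (1.06 [1.02, 1.10]). The runt brain exceeded the other 13 libraries in their sum with miR-222b-3p, at 15530 RPM against 562 to 9918 RPM, and the normal brain, at 2869 RPM, lay within that range. After division by 2.13, which fits the runt to the normal brain only, the runt's sum was 7304 RPM. It was not set beside the other 13 libraries, which were left as deposited.

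Other family-named members past 2-fold higher on both scales were miR-425-5p (6542 and 38402 RPM), miR-187-5p (723 and 3842 RPM), miR-456-5p (322 and 1742 RPM), miR-31 (161 and 843 RPM) and miR-184-5p (21.4 and 189 RPM). miR-184-5p is known from lens and cornea, and miR-31 from epithelia. In the runt brain miR-31 was above its level in every heart and testis library, the highest of which had 730 RPM, and below that of small intestine, jaw skin and cloaca (1177 to 4574 RPM).

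Among the most abundant members, miR-181a-5p had 41873 RPM in the normal and 127211 RPM in the runt brain, 3.04-fold higher as deposited and 1.43-fold after scaling. miR-30a-5p had 25034 and 86819 RPM, 3.47-fold and 1.63-fold higher. miR-125b-5p had 15255 and 34248 RPM, 2.25-fold higher as deposited and within 1.06-fold after scaling. miR-148-5p had 13923 and 26992 RPM, higher as deposited and 1.10-fold lower after scaling. miR-26a-5p had 41528 and 35683 RPM, lower on both scales, as was let-7i, at 18461 and 12573 RPM.

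Ratios of 2 rows within a library do not depend on scaling. The 8 pairs computed, some of 1 family or cluster and some not, were chosen after their values were seen. miR-425-5p and miR-191 come from 1 cluster in the gene DALRD3 in mammals. Their ratio was 1.48 (1.45 to 1.5) in the normal and 13.4 (13.1 to 13.8) in the runt brain, and 0.660 to 9.86 in the other 13 libraries. The highest of those was the heart of the normal hatchling, and the heart of the runt had 1.52.

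miR-30a-5p against miR-30c-5p gave 6.68 in the normal and 38.7 in the runt brain, and 13.3 in the normal and 2.80 in the runt heart. The remaining libraries lay between 1.90 and 7.20. miR-125b-5p against miR-100-5p gave 16.7 and 35.7 in brain, and 42.6 and 11.5 in heart. miR-181a-5p against miR-26a-5p gave 1.01 and 3.56 in brain, and 1.81 and 0.233 in heart. In these 4 of the 8 ratios the runt brain and the normal heart were the 2 highest of 15 libraries, and in the others they were not. let-7c-5p against let-7f-5p gave 2.24 and 5.05 in brain, below 7.13 in the normal heart and 5.47 in cloaca, and miR-222a against miR-221-5p gave 0.593 and 0.950 in brain and 0.434 in both hearts. miR-27-5p against miR-23-3p, also clustered, gave 2.05 in the normal and 3.83 in the runt brain, which lay above the range of the other 13 libraries (0.583 to 2.35).

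**Figure D3:**
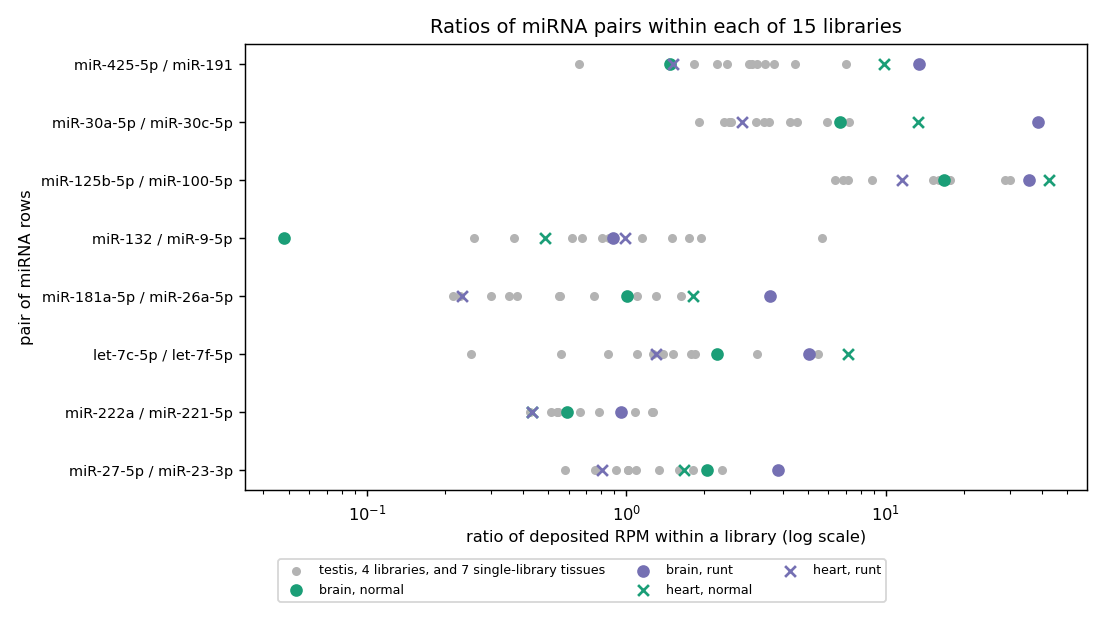
Ratio of 2 miRNA rows within a library, on a logarithmic axis, for 8 pairs in 15 libraries. Circles are the brain and crosses the heart libraries, green for normal and purple for runt, and grey points the other 11 libraries. In the first pair the runt brain (13.4) and the normal heart (9.86) lie to the right of all others, while the normal brain (1.48) and the runt heart (1.52) lie together.

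The lists can be set beside all members, of which 38.8% were past 2-fold lower after scaling (background 25.8%), with a median of -0.54 after scaling and 0.55 as deposited. As every list row carries a family name, the family-named members are the closer match. Of these, 38 of 79 were past 2-fold lower after scaling, with a median of -0.94 after scaling and 0.14 as deposited. The miR-30 family had 3 of 4 members past 2-fold lower after scaling, all but miR-30a-5p, and 0 past 2-fold lower as deposited. Of 6 members of miR-17-92 and paralogous clusters, 4 were past 2-fold lower after scaling (median -1.13), among them miR-93-5p (397 and 314 RPM) and miR-20a-5p (449 and 297 RPM), and 0 as deposited. Of 3 members of the miR-23/27/24 clusters, miR-23-3p (510 and 273 RPM) and miR-27-5p (1045 and 1044 RPM) passed 2-fold lower after scaling. miR-99-5p (1020 and 682 RPM) and miR-100-5p (914 and 960 RPM) passed after scaling as well. The direction of miR-100-5p is reversed as deposited.

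**Figure D4:**
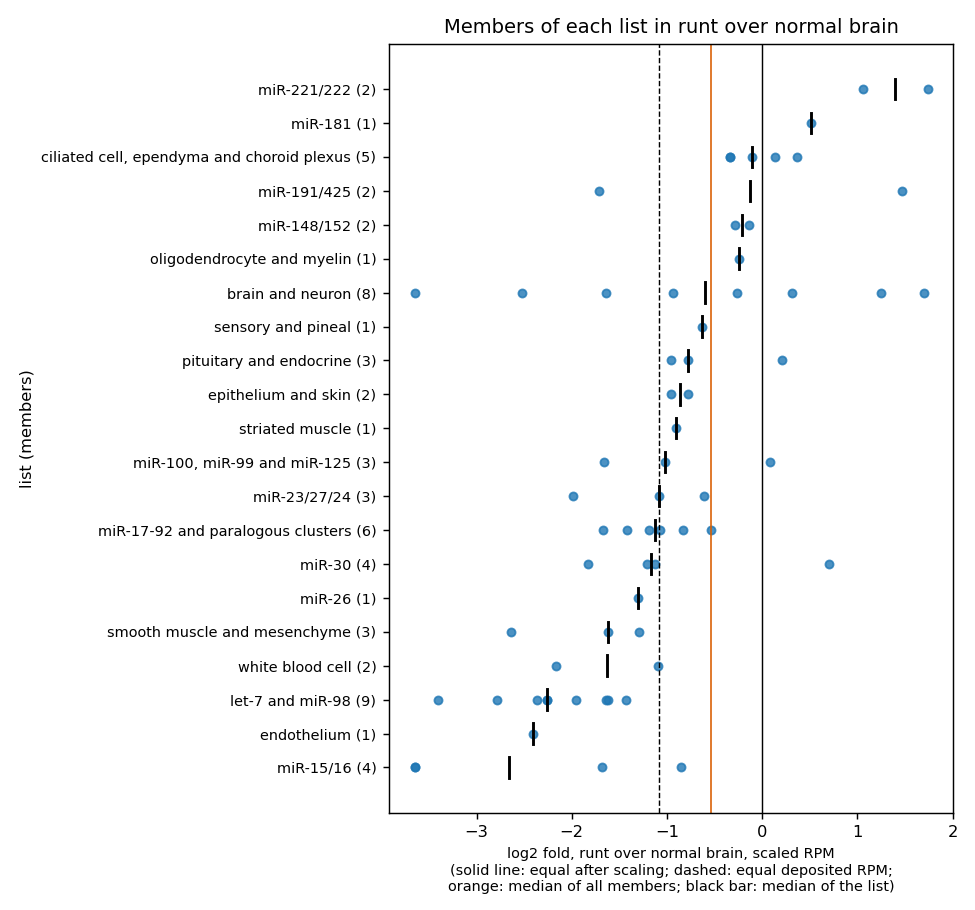
Scaled log2 fold, runt over normal brain, of the members of the 21 lists with at least 1 member; each point is a member and the black bar the list's median. The solid line marks equality after scaling, the dashed line equality of deposited RPM at -1.09 and the orange line the median of all members at -0.54. All 9 let-7 and miR-98 points lie left of the dashed line and both points of the top list, miR-221-5p and miR-222a, lie right of the solid line.

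N-numbered members were shifted upward against those with a family name. After scaling, 11 of 24 N-numbered members were past 2-fold higher and 2 lower, with a median log2 fold of 0.70, while 12 of 79 family-named members were higher and 38 lower, with a median of -0.94. With deposited RPM the medians were 1.77 and 0.14. The limit of 100 RPM has a part in this, since 15 of the 24 were members through the runt alone. Among all names with at least 10 RPM in either library, the medians after scaling were 0.62 for 137 N-numbered and -1.02 for 111 family-named rows.

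Of the N-numbered members, miR-N22 had the largest fold, with 47.5 RPM in the normal and 635 RPM in the runt brain (2.63 [2.45, 2.86]). miR-N312 had 236 and 1795 RPM, and miR-N31 17.7 and 236 RPM. miR-N483 had 33.4 and 327 RPM, and miR-N477 26.7 and 207 RPM. The others past 2-fold higher on both scales were miR-N27, miR-N30, miR-N36, miR-N40, miR-N500 and miR-N542. They had 20.6 to 50.7 RPM in the normal and 129 to 243 RPM in the runt brain. miR-N542 was listed at 0 in 12 of the 13 libraries of other tissues and at 1.27 RPM in tongue.

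In all, 18 members, 6 of them N-numbered, were higher in both brain libraries than in each of the other 13 libraries. Of these, 8 were past 2-fold higher in the runt brain after scaling, namely miR-460b-5p, miR-N483, miR-N312, miR-N477, miR-132, miR-N40, miR-138-5p and miR-N542, and 2 past 2-fold lower, miR-9-5p and miR-124-5p. Of the 8, miR-N483, miR-N477, miR-N40 and miR-N542 had under 100 RPM in the normal brain and became members through the runt, so the count of 8 says nothing of the 18 as a group.

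How far 2 libraries of the same tissue and size class lie apart can be seen only in testis, which has 2 libraries of each class. After the same scaling, 8 of 106 rows with at least 100 RPM in either normal testis differed past 2-fold (7.55%, background 16.3%), and 32 of 117 in the runt testes (27.4%, background 32.7%). In brain it was 63 of 103 members (61.2%, background 49.6%), and in heart, also with 1 library a side, 68 of the same 103 (66.0%, background 60.3%). The median absolute log2 difference was 0.26 in the normal and 0.60 in the runt testes, 1.22 in brain and 1.24 in heart. With deposited RPM the shares were 37.7% in the normal testes (background 46.8%), 29.1% in the runt testes (background 35.7%), 51.5% in brain (background 59.3%) and 56.3% in heart (background 60.3%). The median absolute log2 differences were then 0.86, 0.56, 1.08 and 1.15. The brain libraries thus lay further apart than either testis pair on both scales, though by less as deposited. They are of another tissue and at other depths (2110000 and 4760000 reads in the runt and normal brain, 1120000 to 1960000 in testis).

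The same members were set beside the runt against normal folds of heart and testis, which use other libraries but may use the same animals. In heart after scaling, 14 of the 15 largest negative folds in brain were past 2-fold higher in the runt, and miR-N444 was lower. The background was 43.8% higher and 16.5% lower, and of all 103 members 53.4% were higher and 12.6% lower. All 14 carry a family name, while these shares mix both kinds of name and were not split by kind. With deposited RPM, 11 of the 15 were past 2-fold higher and 1 lower, against 40.8% and 15.5% of the members. Among the 15, miR-16-5p and miR-16a-5p carry the same values, and let-7a-5p and let-7j-5p are a fixed ratio apart. let-7k-5p had 701 RPM in the normal and 3581 RPM in the runt heart, miR-199-5p 1044 and 5667 RPM, and miR-126-5p 3049 and 11283 RPM. Of the 15 largest positive folds in brain, 5 were past 2-fold lower and 3 past 2-fold higher in the runt heart. Those higher were miR-132, miR-222a and miR-460b-5p. With deposited RPM, 7 of the 15 largest positive folds were past 2-fold lower and 2 past 2-fold higher in the runt heart. Over all 103 members the scaled log2 folds of brain and heart correlated at r = -0.43 (Spearman -0.44) across miRNAs, which share the 4 libraries. Within each kind of name r was nearer to equality of no relation, at -0.33 (Spearman -0.30) for the 79 family-named and -0.18 (Spearman -0.21) for the 24 N-numbered members.

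In testis the members went the same way as in brain more often than the opposite way. Past 2-fold in both tissues after scaling, 20 members had the same direction and 3 the opposite, whereas in heart 8 had the same direction and 34 the opposite. Of the 3 in testis, miR-124-5p was listed at 0 in both normal testes. In the runt testes it had 2.69 and 2.62 RPM, about 3 reads each. With deposited RPM, 26 had the same direction and 1 the opposite in testis, and 8 and 24 in heart. After scaling, 23 of 103 members were past 2-fold higher and 40 lower in brain, 55 and 13 in heart, and 23 and 17 in testis. These totals alone favour opposite directions in heart. No share over all names was computed, so the counts describe these members and are not set against a background. With deposited RPM the totals were 38 higher and 15 lower in brain, 42 and 16 in heart, and 45 and 4 in testis. As most were higher in each tissue, those totals alone favour the same direction. Of the 15 largest positive folds in brain, 7 were past 2-fold higher in runt testis after scaling (background 22.0%). miR-N22 had 0 and 0.51 RPM in the normal and 15.2 and 16.6 RPM in the runt testes, miR-139-5p 273 and 87.1 against 815 and 2080 RPM, and miR-490-5p 4.81 and 3.57 against 15.2 and 74.3 RPM. In each of these 3 rows both runt testes lay above both normal testes. Of the 15 largest negative folds, 8 were past 2-fold lower in runt testis after scaling (background 22.3%), while miR-218-5p was higher, with 64.4 and 29.8 against 218 and 301 RPM. With deposited RPM, 0 of these 15 were past 2-fold lower in runt testis (background 9.12%), and 9 were lower and 6 higher by any amount, with a median log2 fold of -0.20. Of the 15 largest positive folds, 13 were then past 2-fold higher (background 41.2%). Across the 103 members the scaled folds of brain and testis correlated at r = 0.46 (Spearman 0.48). For the 79 family-named members r was 0.34 (Spearman 0.34), and for the 24 N-numbered members 0.59 (Spearman 0.40).

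**Figure D5:**
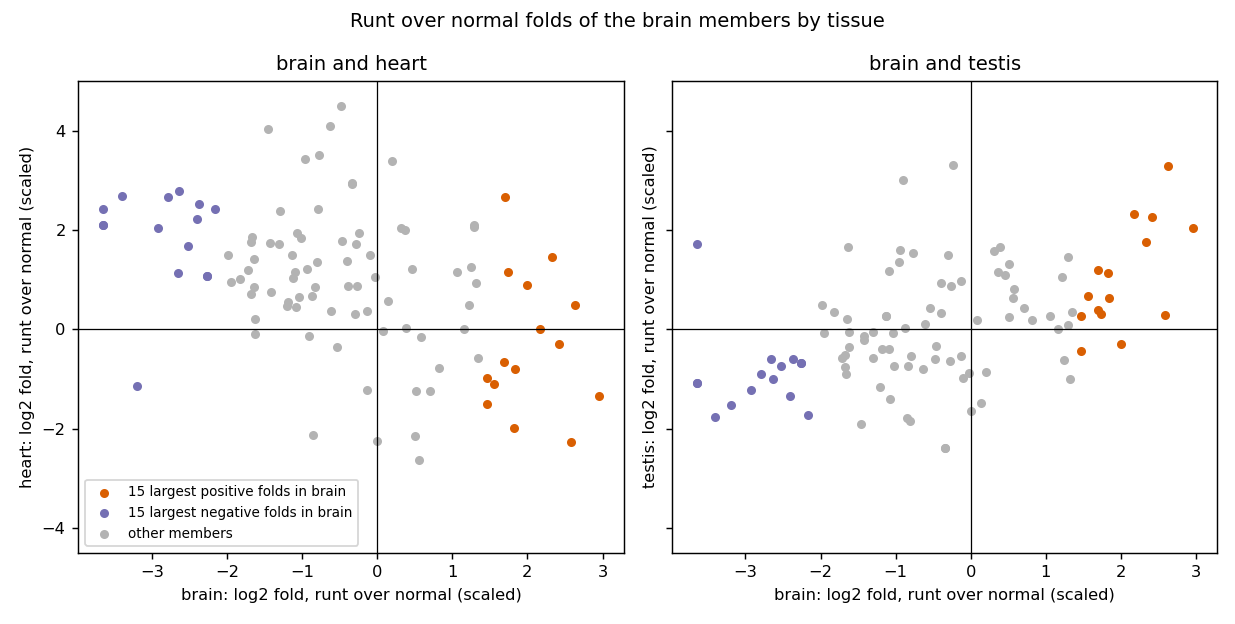
Scaled log2 fold, runt over normal, of the 103 members in brain (horizontal) and in heart (left panel) or testis (right panel, mean of 2 libraries a side). Orange points are the 15 largest positive and purple points the 15 largest negative folds in brain, where the 2 rows of miR-16 and those of let-7a-5p and let-7j-5p overlap. In heart 14 of the 15 purple points lie above 0, and in testis 14 of 15 lie below 0; with deposited RPM 9 of 15 are lower in runt testis.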

How the data were processed

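The deposited table holds RPM (reads per 1000000 reads) that the authors made with the quantifier script of miRDeep2 2_0_0_8, per the file headers, which call the values expression counts. RPM was read from the values, and the divisor and genome build are not given in the sources used here. Bowtie 1.2.0, bcl2fastq 2 and bedtools 2.26.0 are named in the submitters' processing notes without a role. Of 16 value columns, 1 fitted the name of no sample and stayed out. The value of a single read was estimated from the spacing of low values, which gave a depth of 540000 to 4760000 reads per library. Within 0.1 reads, 89.7% of low values in the runt and 93.3% in the normal brain were whole multiples, so the values were not treated as counts, and intervals use rounded estimated reads.

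Scaling used an unweighted trimmed mean of the log ratios of names above 0 in both libraries (30% cut from each end by ratio, 5% by mean level), within each tissue and against its first normal library. Folds are differences of log2(RPM + 1). In the whole table, 647 names were used; the background is the names with at least 10 RPM in either group. Intervals on folds and ratios are exact (Clopper-Pearson, conditional on the sum of both reads) at 95% and cover counting error only, as reads are not independent molecules. Scaling, depth and intervals were tested on simulated data, in which rows changed at random and as often up as down. That differs from these data, where the 2 kinds of name shift apart, so the simulation cannot decide between the factors 2.13 and 1.01. Python 3.11.15, numpy 2.4.6, pandas 2.3.3 and scipy 1.17.1 were used. The members, lists and limits were chosen with earlier results of these data known. Named are the 15 largest positive and negative folds, the 10 most abundant members, members of 28 lists matched by family name, and rows at the limit; a few rows outside these were named after their values were seen. Alternatives were 5 other scalings, 3 other limits on level, a pseudocount of 10 RPM and the use of every row.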

Additional observations from a re-analysis of the deposited data

Results flagged for a closer look

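After scaling, 34 of the 103 members differed past 2-fold in opposite directions in brain and heart, and 3 in brain and testis. Of the 34, 5 were higher and 29 lower in the runt brain. With deposited RPM the counts were 24 and 1. As 40 of the 103 were lower in brain and 55 higher in heart after scaling, some opposite pairs follow from these totals. No share over all names was computed, so the counts describe these members only. Given here are the members with opposite directions after scaling that are among the 15 largest positive and the 15 largest negative folds in brain. With 1 library a side in brain and heart, the difference between tissues was not tested. Values are scaled log2 folds, runt over normal. Higher in runt brain and lower in runt heart were miR-490-5p (2.95 in brain, -1.35 in heart), miR-N31 (2.58, -2.26), miR-N477 (1.83, -1.98), miR-N500 (1.56, -1.10) and miR-425-5p (1.47, -1.50).

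Lower in runt brain and higher in runt heart were 14 of the 15 largest negative folds, namely miR-218-5p (-3.65 in brain, 2.42 in heart), miR-16-5p and miR-16a-5p, which carry the same values (-3.64, 2.11), let-7k-5p (-3.40, 2.69), miR-135a/b-5p (-2.92, 2.04), let-7f-5p (-2.79, 2.66), miR-455-5p (-2.65, 1.13) and miR-199-5p (-2.64, 2.78). So were miR-9-5p (-2.52, 1.68), miR-126-5p (-2.40, 2.22), miR-98-5p (-2.37, 2.52), let-7j-5p and let-7a-5p, which share reads (-2.26, 1.08 each), and miR-21-5p (-2.17, 2.43). In testis, miR-218-5p was the 1 such row of these 30, with a fold of 1.72 and every pair of a runt and a normal library in that direction. The other 2 members that differed so in testis were miR-124-5p (-1.64 in brain, 1.65 in testis) and miR-27-5p (-1.09, 1.17). The testis fold of miR-124-5p rests on about 3 reads in each runt library (2.69 and 2.62 RPM). It was listed at 0 in both normal testes, so its direction there is not secure.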

How the results depend on the processing

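Past 2-fold, 23 members were higher and 40 lower with the main scaling, and past 4-fold 7 and 15. Deposited RPM, and a trimmed mean over family-named rows alone (log2 factor 0.02), each gave 38 higher and 15 lower past 2-fold and 23 and 5 past 4-fold. Scaling to the listed total gave 36 and 16, and 23 and 5. Leaving miR-N444 out of that total gave 25 and 29, and 12 and 12. The 23 higher members stayed past 2-fold higher under each of these 4. They had to, since each of these divides the runt's values by less than the main scaling does. Of the 40 lower members, 15 stayed past 2-fold lower with deposited RPM and 15 with the family-named rows. With the listed total 16 stayed, and 29 without miR-N444. Scaling by the median ratio, which divides by more, kept 22 of the 23 and all 40. Without a limit on level the counts were 88 and 94, and 17 and 33, by construction, since more names enter. The median ratio, limits of 50 or 200 RPM, a pseudocount of 10 RPM and the use of every row kept each count within 1.5 times. miR-100-5p turned to 0.0708 with deposited RPM and 0.0522 with the family-named rows, and miR-363-5p to 0.0115 with deposited RPM. No paired analysis was possible because the sample numbers differ between library names and the value columns carry none. No library could be left out with 1 a side. Depth limits little here, as the widest interval on a member's fold spans 0.825 on the log2 scale, but with 1 library a side no spread between animals is known.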
